A study of Macaca fuscata with 18 samples.

Results

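The anterior subventricular zone (SVZa), which lies along the lateral ventricle beside the striatum, was examined as 3 adjacent tissue fragments, labelled A1, A2 and A3, in each of 3 Japanese macaques (Macaca fuscata) with transient global cerebral ischemia. These 9 postischemic libraries, numbered MK503, MK506 and MK507 in the labels, are all the ischemia libraries among the 18 of the series and were taken by their labels alone. The other 9 came from the sham-operated animals MK501, MK504 and MK508. In the ischemic animals the brachiocephalic trunk and the left subclavian artery were clipped for 18 minutes, the sham-operated animals had a similar operation in which the artery was left unclipped, and tissue was taken 7 days later from the right hemisphere of adult animals. The fragments were bulk RNA of a single coronal slice per animal, without sorting of cells, and were cut from the striatal wall of the ventricle, leaving out its callosal wall. The sources used here do not say which position an A number stands for, nor whether A1 was the same position in every animal, and an MK number is read as an animal because each has 1 treatment. The comparison asked how far the ends of this row of fragments, A1 and A3, differed within the animal and where A2 fell between them.

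The subventricular zone lines the lateral ventricle under a ciliated ependyma and holds astrocyte-like neural stem cells that give rise to neuroblasts. It borders the striatum, whose main neurons are GABAergic projection neurons that express dopamine receptors and DARPP-32, while oligodendrocytes wrap axons in myelin, most densely in white matter. A dissected piece can hold RNA of several cell types, and in bulk RNA fewer cells of a type and less RNA per cell cannot be told apart.

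The postischemic libraries held 18076257 to 74551396 counts (median 55634148) and the sham libraries 19091839 to 57461603 (median 38019896), and in MK503 all 3 libraries were the shallow ones, at 18076257 to 21293436. Levels are given as CPM, counts brought to the same library total with normalization factors, over 1 transcript per gene symbol, the one with the highest mean CPM. Of 19747 symbols, 17145 had enough reads to be tested. Differences between animals carried 63.6% of the variance of log2 CPM over the 9 libraries and the fragment numbers 18.0%. MK503 stood apart from the other animals on the first principal component (61.2% of variance), and the noncoding RNA MALAT1 took 1.20 to 1.27% of counts in its libraries against 0.0398 to 0.235% in the other 6. In A2 of MK503, and in no other postischemic library above 0.0005%, POLE2 took 5.59% of counts. Among the sham animals MK504 was likewise shallow (19091839 to 27419647 counts), with MALAT1 at 1.09 to 1.21% of counts and POLE2 at 5.55% and 5.16% in its A2 and A3 libraries. Fragments are compared within the animal, and the counts over all genes between A1 and A3 are also given without single animals and without A2 of MK503.

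Between the end fragments, 1155 of 17145 genes were higher in A1 than in A3 (6.74%) and 847 were lower (4.94%) at an adjusted p under 0.05, in edgeR's quasi-likelihood test with the animal as a block. The median log2 fold change was 1.23 among the genes that rose and -1.42 among those that fell, against 0.03 over all genes tested, and 754 of the higher and 637 of the lower genes differed over 2-fold. A2 took an intermediate place. Of the 1155 higher genes, 925 were ordered A1 over A2 over A3 in each of the 3 animals (8.98% of all genes were), and of the 847 lower genes 617 were ordered A1 under A2 under A3 in each (7% of all genes were). These genes were chosen for the difference between A1 and A3, so their order is a description. In 748 of the higher and 282 of the lower genes the 3 A1 libraries did not overlap the 3 A3 libraries, as held for 8.64% and 6.16% of all genes in these directions. The smallest adjusted p was 0.0145. No gene passed without MK503 (smallest adjusted p 0.0865), without MK506 (0.161) or without the A2 library of MK503 (0.0509), and 403 higher and 225 lower genes passed without MK507. Every count of called list members below is therefore 0 in the first 3 of these fits, and without MK507 the lists with more than 1 member called were the myelin (14), striatal projection neuron (12), oligodendrocyte precursor (4), immediate early (3) and extracellular matrix (2) lists. None passed either without the animal as a block (smallest adjusted p 0.124, with 1059 higher and 665 lower before adjustment) or in a fit of the 6 A1 and A3 libraries alone (0.175, with 1973 and 1988), against 2876 and 2896 before adjustment in the fit of all 9. All 2002 genes kept their direction in these fits wherever they were tested. Since 1153 of the 1155 higher and all 847 lower genes had the same sign in all 3 animals, few could have reversed. Their kept direction is therefore a description. MALAT1, a nuclear RNA, was at 22600, 4032 and 1045 CPM in A1 of MK503, MK506 and MK507, 21150, 1927 and 1331 CPM in A2, and 18110, 961 and 685 CPM in A3 (log2 fold change 1.02, adjusted p 0.127), and its part in the calls was not tested. Without the A1 library of MK503, 1667 higher and 1708 lower genes passed. DESeq2 with the same design called 2012 higher and 2378 lower, so that under it the lower genes outnumbered the higher ones.

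**Figure D1:**
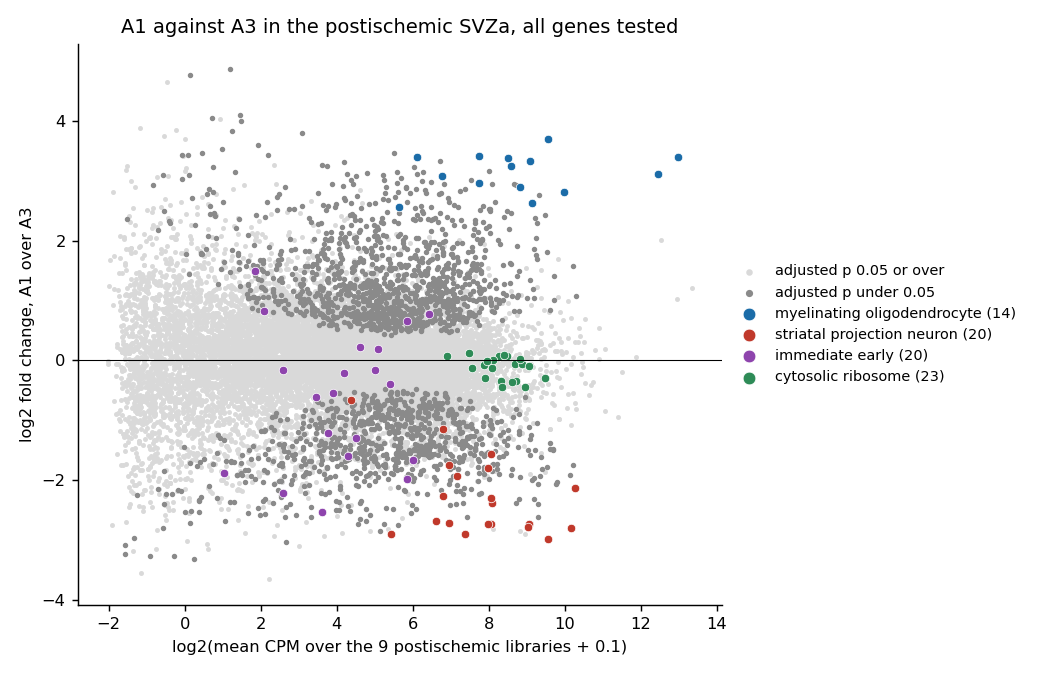
Each point is 1 of the 17145 genes tested, with log2 of its mean CPM over the 9 postischemic libraries (plus 0.1) on the x axis and its log2 fold change of A1 over A3 on the y axis. Dark points passed the test, the 14 myelinating oligodendrocyte markers lie between 2.56 and 3.69, the 20 striatal projection neuron markers between -2.99 and -0.66, and the 23 ribosomal genes lie near 0.

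Of 30 gene lists, the myelinating oligodendrocyte markers were the only one in which every member tested passed the test as higher in A1. In some other lists, such as the ependymal and the microglia lists, every estimate was above 0 but not all passed. All 14 myelin markers were higher in A1 than in A3, with a median log2 fold change of 3.18, and in all 14 the A1 libraries lay above every A3 library. MBP, a structural protein of compact myelin, was at 10910, 25420 and 8568 CPM in A1 of MK503, MK506 and MK507, at 4236, 10080 and 9098 CPM in A2, and at 452, 2306 and 2088 CPM in A3. Its lowest A1 library exceeded its highest A3 library, and only in MK507 did A2 reach the level of A1. MBP differed by 3.39 ± 0.51 (SE, n = 3 animals) on the log2 scale, with an adjusted p of 0.0201. The order A1, A2, A3 held in all 3 animals in 13 of the 14 markers. MOBP had the largest difference of the list, 3.69 ± 0.48 (adjusted p 0.0163), and ASPA, which splits N-acetylaspartate, the smallest, 2.56 ± 0.22 (0.0145). Among the others, MAG and MOG, proteins of the outer myelin surface, were at 3.25 and 2.89, CLDN11, which forms the tight junctions of myelin, at 3.42, and UGT8, which makes the galactolipids of myelin, at 3.08. MYRF, the transcription factor that drives myelin genes, was at 2.96 ± 0.45 (adjusted p 0.0201).

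The steps between fragments differed from animal to animal. Summed over the 14 markers, myelin transcripts took 33890, 13330 and 1818 CPM in A1, A2 and A3 of MK503, 49500, 22400 and 5131 CPM in MK506, and 18470, 17690 and 4402 CPM in MK507. The sum therefore fell in 2 large steps in MK503 and MK506 and in a single step between A2 and A3 in MK507. The medians of the A1 to A3 log2 ratios were 4.27 in MK503, 3.12 in MK506 and 2.14 in MK507. Without MK503 the fitted median of the list was 2.67, without MK506 3.20 and without MK507 3.67, and all 14 markers kept an unadjusted p under 0.05 in each of these fits (16.8% of all genes were higher at that level with all animals).

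The 10 genes with the smallest p in this direction included 1 of the myelin markers, ASPA. CRYAB, the small heat shock protein alpha-B crystallin, had 215, 1440 and 684 CPM in A1, 105, 525 and 500 CPM in A2, and 28.4, 139 and 124 CPM in A3, a log2 fold change of 2.94 ± 0.23 (adjusted p 0.0145). It was ordered A1 over A2 over A3 in every animal. It was also the only member of a heat shock list of 13 genes that rose, a number close to the 6.74% of all genes that did. The most abundant members HSP90AA1 and HSPA8 were at -0.37 and -0.03 (0.03 without MK503) and did not pass. CD9, a tetraspanin of cell membranes, was at 2.25 ± 0.20, COL4A5, a chain of type IV collagen, at 2.10 ± 0.18, and PRR5L, a partner of the kinase complex mTORC2, at 2.61 ± 0.23. The remaining 6 were EVI2A, HHATL, ASPA, C21orf91, CYB5R2 and TMEM125, at 2.28 to 3.15. EVI2A lies within an intron of NF1 on the other strand, and since the counting by bedtools at its default settings does not use strand, reads of the 2 genes cannot be told apart there.

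In the list of 9 oligodendrocyte precursor markers, 5 rose and none fell (median 1.53), beside 6.74% and 4.94% of all genes. The 5 were 4 transcription factors of the lineage and BMP4, a secreted ligand whose values follow with its pathway. SOX10, a transcription factor kept through the lineage, had 126, 248 and 106 CPM in A1, 42.4, 141 and 106 CPM in A2, and 13.6, 44.5 and 42.5 CPM in A3, a log2 fold change of 2.37 ± 0.36 (adjusted p 0.0201). OLIG1 was at 1.98 ± 0.35, OLIG2 at 1.65 ± 0.31 and NKX2-2 at 1.82 ± 0.33. These 4 factors are also expressed by oligodendrocytes that have left the precursor state. PDGFRA, the receptor that defines precursors, was at 0.43 ± 0.22 (adjusted p 0.211), with 341, 81.7 and 77.4 CPM in A1, 183, 78.4 and 85.2 CPM in A2, and 186, 65.2 and 75.6 CPM in A3. CSPG4 and GPR17, named here after their values were seen, were at 0.42 and 0.25, the second at -0.29 without MK503. The A1 and A3 libraries of PDGFRA overlapped, and only MK503 had a clear excess in A1.

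Transcripts of striatal projection neurons went the other way. Of 20 markers 12 were lower in A1 than in A3 and none was higher, beside 4.94% and 6.74% of all genes. The median log2 fold change was -2.54, and 19 had an unadjusted p under 0.05 (16.9% of all genes were lower at that level). PPP1R1B, which encodes DARPP-32, had 46.7, 376 and 1280 CPM in A1 of MK503, MK506 and MK507, 251, 1196 and 2519 CPM in A2, and 284, 2851 and 2333 CPM in A3. Within each animal A1 was the lowest fragment, but across animals the groups overlapped, because MK503 was low in every fragment. Its log2 fold change was -2.14 ± 0.45 (adjusted p 0.0351). The dopamine receptor DRD2 was at -2.69 ± 0.55 and the adenosine receptor ADORA2A, which the same neurons carry, at -2.90 ± 0.67. ARPP21 was at -2.79 ± 0.68, PDE1B, a phosphodiesterase of cyclic nucleotides, at -2.79 ± 0.62, and PDYN, the precursor of dynorphins, at -2.29 ± 0.57. DRD1 (-2.71, adjusted p 0.0683), PENK (-2.99, 0.0514) and TAC1 (-2.38, 0.0661), which were named after their values were seen, did not pass.

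The place of the neuronal step also varied between animals. Summed over the 20 markers, striatal projection neuron transcripts took 553, 3785 and 4348 CPM in A1, A2 and A3 of MK503, 1404, 5717 and 14590 CPM in MK506, and 6486, 11570 and 11940 CPM in MK507. In MK503 and MK507 A2 was already close to A3, while in MK506 each fragment differed from the next. The fitted list medians were -1.83 for A1 against A2 and -0.57 for A2 against A3 in these markers and 0.92 and 2.25 in the myelin markers. Whether the place of the step differed between the lists was not tested. In MK507 the A1 to A3 median was -0.91, against -3.45 in MK503 and -3.64 in MK506. Without the A1 library of MK503 the number of markers that fell was 4 of 20, and without MK507 it was again 12.

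**Figure D2:**
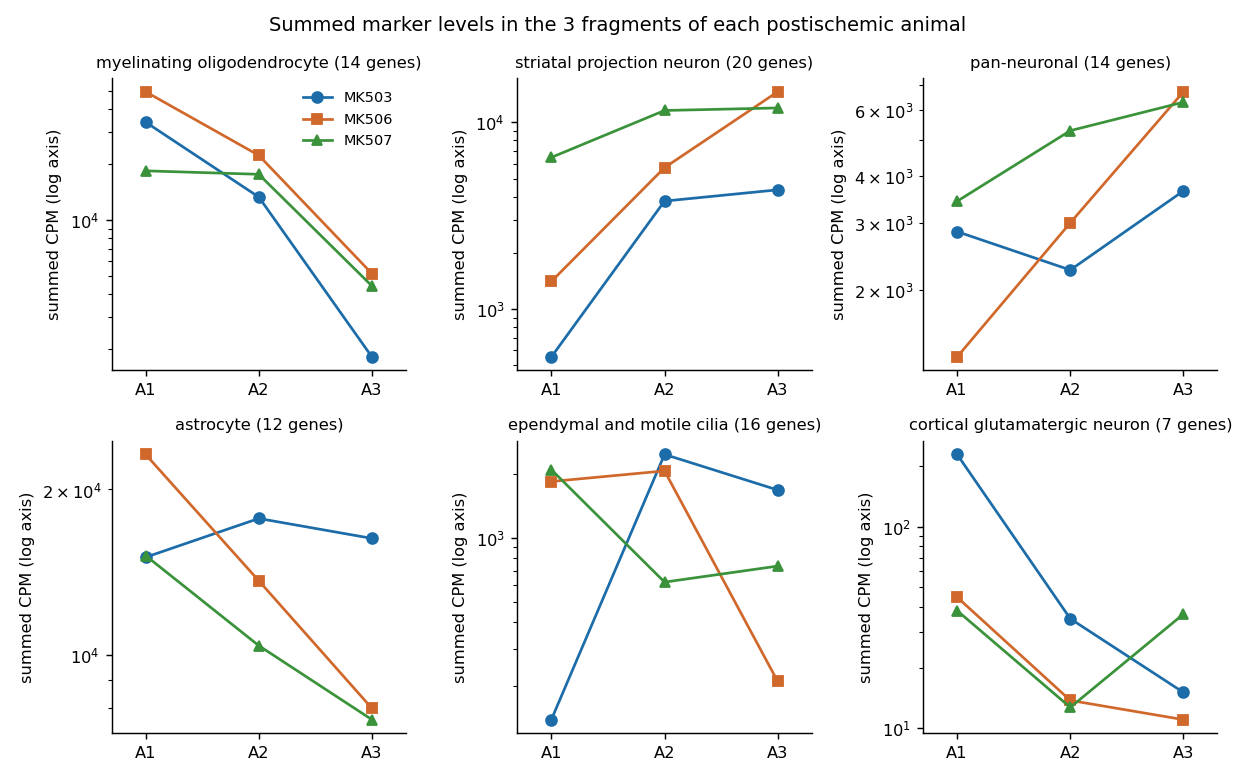
Summed CPM of 6 marker lists (log axes) in fragments A1, A2 and A3, with 1 line per postischemic animal. The myelin sum is highest in A1 in all 3 animals and the striatal projection neuron sum lowest in A1 in all 3, whereas the ependymal sum is lowest in A1 of MK503 (139 CPM) and high in A1 of MK506 and MK507 (1839 and 2091 CPM).

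General neuronal transcripts were lower in A1 to a smaller extent. Of 14 pan-neuronal markers 2 fell, beside 4.94% of all genes, 12 did not pass, and the median was -1.13. UCHL1, an abundant neuronal ubiquitin hydrolase, had 158, 243 and 516 CPM in A1, 163, 553 and 846 CPM in A2, and 265, 1133 and 1059 CPM in A3 (-1.32 ± 0.31, adjusted p 0.0428), and the growth cone protein GAP43 was at -1.45 ± 0.35 (0.0466). The synaptic protein SNAP25 (-1.14) and the dendritic protein MAP2 (-0.98) did not pass. In MK503 the median of the list was only -0.35, against -2.34 in MK506 and -0.89 in MK507. None of 11 striatal interneuron markers passed (median -1.23). NPY, a peptide of 1 interneuron class, was at -1.30 ± 0.36 (adjusted p 0.0605), and in MK503 the median of that list was 0.09.

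Activity-induced transcription factors were among the genes that fell. Immediate early genes are switched on within minutes by neuronal activity or by injury. Of 20, 8 were lower in A1 and 1 was higher, beside 4.94% and 6.74% of all genes, with a median of -0.48. EGR1 had 14.9, 22.2 and 61.4 CPM in A1, 22.9, 65.6 and 88.9 CPM in A2, and 39.8, 134 and 127 CPM in A3, a log2 fold change of -1.67 ± 0.29 (adjusted p 0.0246), and was ordered A1 under A2 under A3 in each animal. EGR2 was at -2.54 ± 0.52, EGR3 at -1.98 ± 0.36, EGR4 at -1.60 ± 0.30, FOSB at -2.21 ± 0.55 and NPAS4, which is largely confined to neurons, at -1.88 ± 0.43. ARC, which acts at synapses, was at -1.22 ± 0.19 and the nuclear receptor NR4A1 at -1.29 ± 0.31. The exception was ATF3, a stress-induced factor, with 3.01, 7.74 and 4.11 CPM in A1, 1.60, 6.69 and 3.23 CPM in A2, and 0.669, 2.66 and 2.10 CPM in A3 (1.5 ± 0.29, adjusted p 0.0312). JUND, the list member with the highest mean CPM, was at 0.77 (0.0525) and did not pass. The part that the number of neurons had in these values was not tested, and the neuronal sums above fell over the same fragments.

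Transcripts of astrocytes did not move together. Of 12 markers 1 fell and none rose (median 0.54), beside 4.94% of all genes that fell and 6.74% that rose. GFAP, the intermediate filament of astrocytes, had 6238, 14950 and 6940 CPM in A1, 6896, 6061 and 4298 CPM in A2, and 4589, 1544 and 1413 CPM in A3. Its A1 and A3 libraries did not overlap, but with a log2 fold change of 2.02 ± 0.53 its adjusted p was 0.0547. The glutamate transporter SLC1A2 was at -0.94 (0.0913), and FGFR3, a growth factor receptor, fell by 0.79 ± 0.20 on the log2 scale (0.0492). Among 11 genes of reactive astrocytes, 2 rose and none fell (median 1.43, with -0.38 in MK503). CD44, the hyaluronan receptor, had 162, 135 and 75.4 CPM in A1, 150, 41.0 and 39.8 CPM in A2, and 67.7, 6.70 and 7.21 CPM in A3, a log2 fold change of 3.0 ± 0.57 (adjusted p 0.0300). Its A2 level was close to A1 in MK503 and intermediate in the other animals. CHI3L1, a secreted protein of reactive astrocytes, was at 1.72 ± 0.34 (0.0324).

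In the immune and matrix lists a minority of genes passed. Of 14 microglia and macrophage markers, 2 rose and 12 did not pass (median 0.54), beside 6.74% of all genes that rose. CSF1R, the receptor on which microglia depend, had 92.4, 116 and 80.8 CPM in A1, 70.5, 79.4 and 73.3 CPM in A2, and 70.7, 67.3 and 51.1 CPM in A3 (0.61 ± 0.14, adjusted p 0.0442). The fractalkine receptor CX3CR1 was at 0.68 ± 0.13 (0.0313). Both differences were small beside those of the myelin genes. In the interferon and MHC list, 3 of 12 rose (median 1.07), namely CD74, the invariant chain of MHC class II, at 1.46 ± 0.35, MX1 at 1.48 ± 0.31 and IFIT3 at 0.88 ± 0.20, the last 2 being interferon-induced. In the extracellular matrix and scar list, 5 of 20 rose and none fell (median 0.51). VCAN, the proteoglycan versican, had 378, 116 and 91.9 CPM in A1, 258, 78.9 and 65.6 CPM in A2, and 139, 25.7 and 27.5 CPM in A3, with a log2 fold change of 1.77 ± 0.18 (adjusted p 0.0145) and the order A1, A2, A3 in each animal. The others were CD44, HAPLN2, a link protein of the nodes of Ranvier, at 2.72 ± 0.48, the chondroitin sulfotransferase CHST3 at 2.01 ± 0.25 and the small proteoglycan DCN at 0.78 ± 0.16.

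Few vascular genes passed, beside 6.74% of all genes that rose and 4.94% that fell. None of 12 endothelial markers passed (median 0.09), and the smooth muscle myosin MYH11 (1.78 ± 0.29, adjusted p 0.0221) was the only one of 7 pericyte and smooth muscle markers that did. Of 8 fibroblast and meningeal markers DCN and PTGDS rose (median 0.98), and 7 were higher at an unadjusted p under 0.05 (16.8% of all genes were). PTGDS, a prostaglandin synthase that oligodendrocytes also express, was at 1.40 ± 0.24 (0.0248). None of 4 measured blood genes passed, with a fitted median of 1.04 and medians of -1.13 in MK503, 1.93 in MK506 and 1.52 in MK507.

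**Figure D3:**
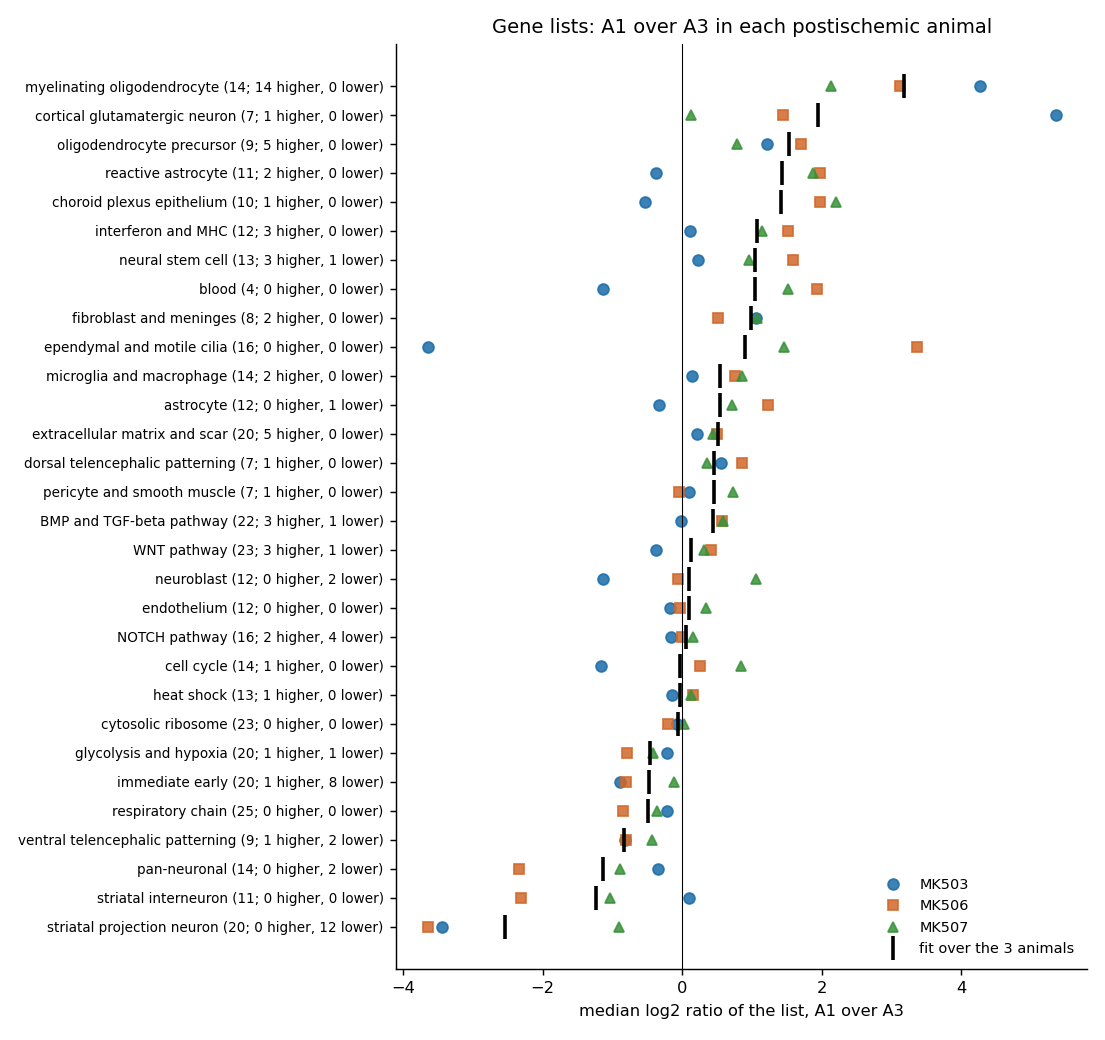
Median log2 ratio of A1 over A3 for each of 30 gene lists, by postischemic animal (coloured symbols) and in the fit over all 3 (black bars), with the number of genes tested and of those called higher or lower beside each name. The myelin list lies right of 0 and the striatal projection neuron list left of 0 in all 3 animals, and the ependymal list lies on opposite sides, at -3.65 in MK503 and 3.36 in MK506.

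Genes that mark the stem cell niche were mixed, beside 6.74% of all genes that rose and 4.94% that fell. Of 13 neural stem cell markers 3 rose and 1 fell (median 1.05). FABP7, a fatty acid binding protein of radial glia, had 125, 165 and 149 CPM in A1, 142, 133 and 103 CPM in A2, and 71.8, 40.0 and 50.2 CPM in A3 (1.47 ± 0.24, adjusted p 0.0232). VCAM1, an adhesion molecule that stem cells of the niche display, was at 2.58 ± 0.50 (0.0312), and SOX2 was at 1.05 (0.0521) and did not pass. Of 12 measured neuroblast genes 2 fell, GAD1, the GABA-producing enzyme that mature striatal neurons also carry, at -1.40 ± 0.28 and the homeobox gene DLX6 at -1.65 ± 0.38. The neuroblast marker DCX, named after its values were seen, was at 77.2, 40.4 and 111 CPM in A1, 96.6, 95.0 and 54.5 CPM in A2, and 147, 57.7 and 46.5 CPM in A3, with no order common to the animals. Among 14 cell cycle genes TYMS, thymidylate synthase, rose (3.11 ± 0.32, adjusted p 0.0145) and no other passed. TYMS had 40.6, 48.8 and 17.3 CPM in A1, 14.0, 25.5 and 14.8 CPM in A2, and 3.35, 4.48 and 3.72 CPM in A3, while the proliferation marker MKI67, named after its values were seen, was at 0.751, 0.925 and 4.30 CPM in A1, 4.57, 5.94 and 3.38 CPM in A2, and 6.36, 1.17 and 1.47 CPM in A3. The 2 genes thus took different courses over the fragments.

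Of the signalling pathways that set stem cell fate, each had members on both sides, beside 6.74% of all genes that rose and 4.94% that fell. Notch receptors on one cell bind Jagged or Delta ligands on a neighbour and switch on HES and HEY repressors through RBPJ. In the NOTCH list 2 of 16 rose and 4 fell (median 0.06). The ligands JAG1 (-0.80 ± 0.20) and JAG2 (-0.94 ± 0.16) fell, the receptor NOTCH1 (0.71 ± 0.16) and RBPJ (1.07 ± 0.24) rose, and the targets HES5 (-1.55 ± 0.32) and HEY1 (-1.42 ± 0.30) fell. HES5 had 4.84, 4.07 and 9.11 CPM in A1, 4.33, 11.4 and 17.7 CPM in A2, and 12.04, 17.8 and 21.5 CPM in A3, without overlap between A1 and A3. Secreted frizzled-related proteins bind WNT ligands outside the cell, and LRP6 is a coreceptor for them. Of 23 WNT genes 3 rose and 1 fell (median 0.12), the second number close to the share of all genes that fell. SFRP1 had 322, 382 and 185 CPM in A1, 93.7, 246 and 154 CPM in A2, and 27.3, 44.1 and 51.7 CPM in A3, a log2 fold change of 2.87 ± 0.38 (adjusted p 0.0170), with the order A1, A2, A3 in each animal. SFRP4 was at 1.67 ± 0.26 and LRP6 at 0.95 ± 0.14, while DKK3, a secreted relative of WNT antagonists, fell by 1.62 ± 0.32 on the log2 scale. No WNT ligand or frizzled receptor of the list passed.

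In the BMP and TGF-beta list 3 of 22 rose and 1 fell (median 0.44), numbers close to the shares of all genes that rose (6.74%) and fell (4.94%). BMP4, a ligand, had 7.01, 11.2 and 5.91 CPM in A1, 4.65, 4.55 and 4.53 CPM in A2, and 4.60, 2.34 and 1.8 CPM in A3 (1.53 ± 0.36, adjusted p 0.0457). ID2, a target of BMP signalling, was at 1.43 ± 0.32, the receptor NEO1 at 1.14 ± 0.26 and the inhibitor SMAD7 at -0.73 ± 0.14. Among factors of ventral forebrain patterning, the morphogen SHH (-2.81 ± 0.70) and NKX2-1 (-2.57 ± 0.61), a factor of the ventral forebrain and of its interneurons, fell and NKX6-2 rose (2.74 ± 0.35), with 9 measured and a list median of -0.84. SHH was scarce in every library, and its A1 and A3 libraries overlapped. It had 0.0835, 0.0617 and 0.280 CPM in A1, 0.0802, 0.372 and 1.90 CPM in A2, and 0.251, 0.965 and 1.20 CPM in A3. NKX2-1 had 0.751, 0.463 and 3.69 CPM in A1, 1.44, 3.98 and 5.68 CPM in A2, and 5.52, 8.34 and 8.34 CPM in A3. NKX6-2 is also a factor of mature oligodendrocytes and had 33.0, 154 and 51.2 CPM in A1, 15.1, 66.8 and 57.2 CPM in A2, and 2.84, 19.9 and 15.6 CPM in A3. The list named dorsal patterning had 7 measured genes and also held GSX2, which is not a dorsal factor. Of that list the neurogenic factor NEUROG2 rose, with 1.34, 10.4 and 4.56 CPM in A1, 6.57, 5.88 and 3.23 CPM in A2, and 0.836, 0.322 and 0.263 CPM in A3 (3.60 ± 0.82, adjusted p 0.0416).

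Few genes of energy metabolism and none of the ribosome passed, beside 6.74% of all genes that rose and 4.94% that fell. All 25 respiratory chain genes were below 0 with 15 of them under 0.05 before adjustment (16.9% of all genes were lower at that level), but none passed (median -0.49). In the sham animals all 25 were below 0 as well, 5 of them at that level. The ATP synthase subunits ATP5A1 and ATP5B were at -0.59 (adjusted p 0.0705) and -0.65 (0.0869). Of 20 glycolysis and hypoxia genes ENO2, the neuronal enolase, fell (-1.04 ± 0.24, 0.0426) and hexokinase HK2 rose (1.19 ± 0.19, 0.0222), with a median of -0.46. None of 23 cytosolic ribosome genes passed (median -0.06).

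**Figure D4:**
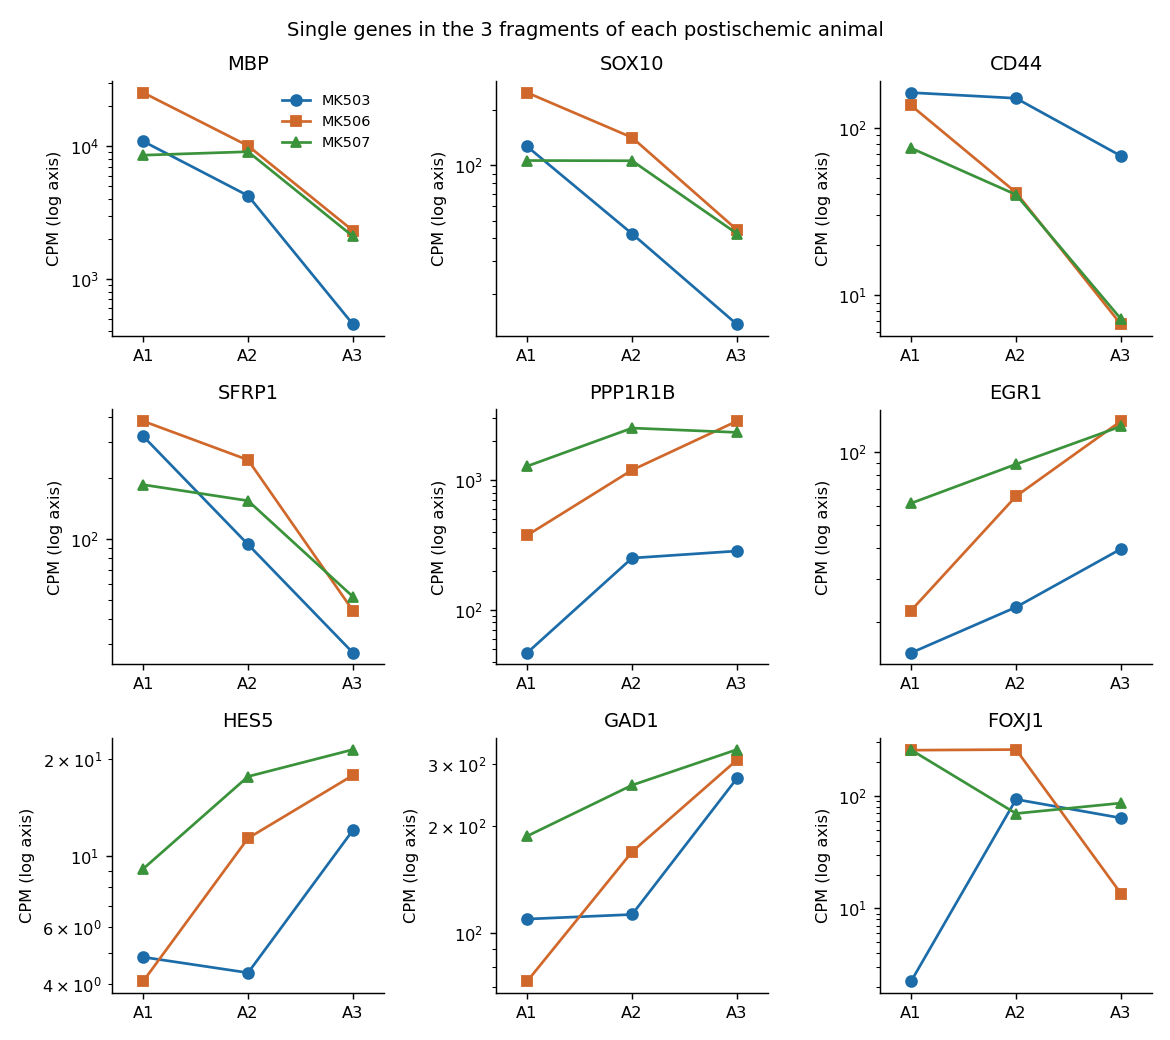
CPM of 9 single genes (log axes) in fragments A1, A2 and A3, with 1 line per postischemic animal. MBP, SOX10, CD44 and SFRP1 are highest in A1, or in MBP of MK507 close to A2, PPP1R1B, EGR1 and GAD1 are lowest in A1 of every animal, and FOXJ1 is at 2.25 CPM in A1 of MK503 against 13.5 CPM or more in every other fragment.

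Several of the 10 genes that fell with the smallest p are known from neurons. OPRL1, the receptor of the neuropeptide nociceptin, had 6.93, 21.8 and 47.9 CPM in A1, 13.6, 42.6 and 92.1 CPM in A2, and 24.7, 74.6 and 112 CPM in A3, a log2 fold change of -1.61 ± 0.16 (adjusted p 0.0145). NECAB2, a neuronal calcium-binding protein, was at -2.0 ± 0.28, RIMS3, a protein of the synaptic release site, at -1.15 ± 0.16, and GRIP2, which binds glutamate receptors, at -1.73 ± 0.24. WFS1, a membrane protein of the endoplasmic reticulum, had 41.7, 106.6 and 157 CPM in A1, 77.6, 168 and 176 CPM in A2, and 133, 246 and 380 CPM in A3 (-1.38 ± 0.18, adjusted p 0.0163). In OPRL1 and WFS1 each animal kept its rank in every fragment, MK503 lowest and MK507 highest. The others included C17orf107, MYO5C, ECE2 and LINC00176, at -1.93 to -0.97.

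Transcripts of the cells that line the ventricle did not follow a common order over the numbered fragments. None of 16 ependymal and motile cilia genes passed, and the animals went in opposite directions. The sum was 139, 2467 and 1677 CPM in A1, A2 and A3 of MK503, 1839, 2063 and 211 CPM in MK506, and 2091, 618 and 735 CPM in MK507. FOXJ1, the master factor of motile cilia, named after its values were seen, had 2.25, 254 and 256 CPM in A1, 93.0, 257 and 69.6 CPM in A2, and 63.6, 13.5 and 86.2 CPM in A3. The poorest fragments were A1 in MK503 and A3 in MK506. Choroid plexus transcripts were scarce in these 9 libraries, with sums of 114 to 609 CPM over 10 genes. TTR, the transthyretin that choroid plexus secretes, had 1.00, 17.9 and 153 CPM in A1, 9.06, 12.7 and 10.6 CPM in A2, and 2.43, 0.936 and 13.8 CPM in A3. SLC13A4 (1.89 ± 0.33, adjusted p 0.0256) was the only gene of that list that passed, beside 6.74% of all genes that rose and 4.94% that fell.

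A1 of MK503 also held transcripts of cortical glutamatergic neurons. The sum of 7 such genes was 229 CPM there, against 44.7 and 38.4 CPM in A1 of MK506 and MK507 and 11.0 to 36.9 CPM in the A2 and A3 libraries. SLC17A7, the vesicular glutamate transporter of cortical neurons, had 136, 25.4 and 20.3 CPM in A1, 2.24, 2.97 and 6.20 CPM in A2, and 1.34, 6.87 and 26.0 CPM in A3, and NEUROD6, named after its values were seen, was at 36.4 CPM in A1 of MK503 and at 3.04 CPM or less elsewhere. The fragment A1 of MK503 therefore had the lowest ependymal and the highest cortical neuron level of the 9, and it combined them with a high myelin level. What share these had in the differences between A1 and A3 was not tested beyond the fit without that library given above.

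Between neighbouring fragments edgeR called no gene. Between A1 and A2 the smallest adjusted p was 0.592, with 711 higher (4.15%) and 725 lower (4.23%) before adjustment, and DESeq2 called 12 higher and 67 lower. Between A2 and A3 none passed (0.145), with 1219 higher (7.11%) and 602 lower (3.51%) before adjustment, and DESeq2 called 376 higher and 50 lower. A fit of the 6 libraries of A2 and A3 alone called 156 higher and 2 lower in A2. The 14 myelin markers had a median of 2.25 in A2 against A3, and before adjustment all 14 were under 0.05. Among the genes with the smallest p between A1 and A2 were NGFR, the low-affinity neurotrophin receptor, with 8.68, 3.21 and 2.64 CPM in A1 and 0.240, 0.350 and 0.577 CPM in A2, and MYOC, myocilin, with 2.76, 2.13 and 11.4 CPM in A1 and 0.802, 0.131 and 2.02 CPM in A2. In both genes A1 lay above A2 in each animal. The smallest p between A2 and A3 included EVI2A, ASPA, COL4A5, HHATL and CRYAB, which were also among the leading genes between A1 and A3. Among the genes lower in A2 than in A3 was BAIAP3, which acts in vesicle release, with 18.4, 31.2 and 49.4 CPM in A2 and 71.8, 57.5 and 126 CPM in A3. A test of any difference between the 3 fragments called 139 genes (0.811%), all of them also called between A1 and A3 and 135 of them higher in A1. Its smallest adjusted p was 0.0451, and no gene passed with any animal left out, without A1 or A2 of MK503, with DESeq2's size factors, with summed transcripts, in the fit of all 18 libraries or without the block.

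Whether the difference between A1 and A3 differed between ischemic and sham-operated animals, in either direction, was asked in a fit of all 18 libraries. The differences were compared with their signs, so that a sham difference of the opposite sign adds to the result. The sham A1 and A3 fragments gave no gene at an adjusted p under 0.05 (smallest 0.816, with 323 higher, 1.86%, and 509 lower, 2.94%, before adjustment), but a gene that passes in one condition and not in the other is not thereby shown to differ. In the test of the difference itself edgeR called no gene (smallest adjusted p 0.116), with 2781 of 17323 at an unadjusted p under 0.05 (16.1%), whereas DESeq2 called 1001. The log2 fold changes of A1 over A3 in ischemic animals, from the fit of 9 libraries, and in sham animals, from that of 18, had a Pearson r of 0.20. This was taken across 17081 genes, which are not independent replicates. Of the 1154 genes higher in postischemic A1 that were measured in sham animals, 358 had the same sign there, and of 845 lower genes 674 did. Both sets lay below 0 in the sham animals, with median log2 fold changes of -0.15 in the higher and -0.23 in the lower genes. Over all genes the sham median was -0.03. The weight of single sham libraries in these counts was not tested.

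Of the 30 lists, the myelin markers had the largest median difference between conditions. In the 18-library fit the median of the 14 markers was 3.19 in ischemic and -0.46 in sham animals, a difference with a median of 3.59. All 14 had an unadjusted p under 0.05 in the direction higher after ischemia (10.2% of all genes did), none passed in edgeR and all 14 passed in DESeq2. By animal, the medians of the A1 to A3 ratio were 4.27, 3.14 and 2.13 in MK503, MK506 and MK507, against 0.82, 0.45 and -2.82 in MK501, MK504 and MK508. No sham animal reached the lowest ischemic animal, but the sham value rested on MK508. On the scale of the 18-library fit, MBP had 10680, 25170 and 8397 CPM in postischemic A1 of MK503, MK506 and MK507, 4099, 9892 and 8962 CPM in A2, and 440.9, 2246 and 2057 CPM in A3. On the same scale it had 2258, 1250 and 3601 CPM in sham A1 of MK501, MK504 and MK508, 1664, 527 and 8666 CPM in sham A2, and 1290, 748 and 28720 CPM in sham A3. In MK508 the fragment numbered A3 had the highest MBP level of any sham library, above every postischemic A1 library, so that the A numbers did not mark the same myelin content in every animal. Without MK508 the median difference was 2.53 and without MK504 4.16, and in both fits all 14 had an unadjusted p under 0.05 and none passed.

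In the striatal projection neuron markers the medians by animal were -3.44, -3.61 and -0.92 after ischemia, against -0.19, -1.70 and -0.39 after sham surgery, and these ranges overlapped. Here 19 of 20 sham estimates were below 0 as well. In the test of the difference 4 of 20 had an unadjusted p under 0.05 (5.88% of all genes were lower at that level), edgeR called none and DESeq2 called 1. That number was 0 without MK503, MK506 or MK508, 1 without MK501, 13 without MK504 and 15 without MK507. Of the 20 immediate early genes, 8 were lower and 2 higher at that level and none passed in edgeR. The smallest p of this test for a positive difference, on the log2 scale, were those of NEU4, a sialidase (3.38, p 3.28e-05), ELL2 (2.28), ASPA (3.03), ARHGEF10 (1.52) and MLIP (2.20). For a negative one they were those of CACNA2D2, a calcium channel subunit (-2.10, p 5.09e-05), SH2D3A (-3.09), WFS1 (-1.64), GABRB1 (-1.11) and DIAPH1 (-1.09), and none had an adjusted p under 0.116. On the scale of the 18-library fit CACNA2D2 had 23.1, 20.1 and 46.3 CPM in A1, 30.4, 52.7 and 64.0 CPM in A2 and 70.5, 90.7 and 103 CPM in A3 of the ischemic animals, against 75.7, 98.7 and 51.3 CPM in A1, 77.1, 74.1 and 46.7 CPM in A2 and 78.5, 51.1 and 35.8 CPM in A3 of the sham animals. The ischemic A1 libraries were all below the sham A1 libraries, and the A3 libraries of the 2 conditions overlapped.

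**Figure D5:**
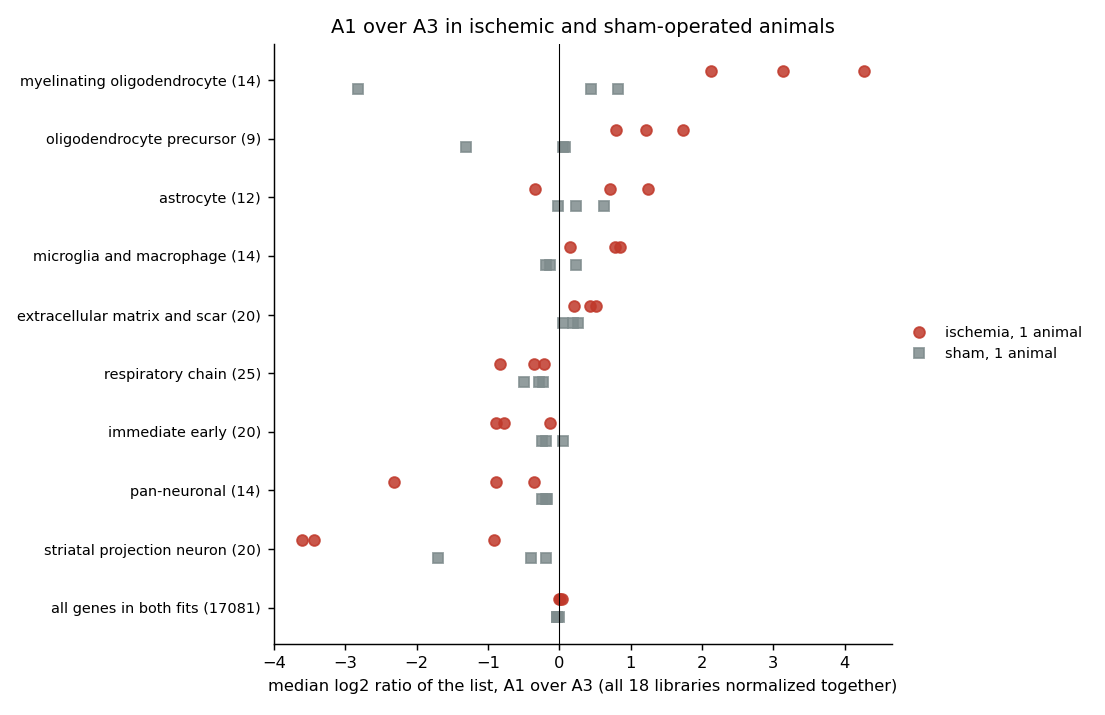
Median log2 ratio of A1 over A3 for 9 gene lists and for all 17081 genes in both fits, with 1 point per animal, from the 18 libraries normalized together. In the myelin list the 3 ischemic animals (2.13 to 4.27) lie right of all 3 sham animals (-2.82 to 0.82), and in the striatal projection neuron list the ranges overlap.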

How the data were processed

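Total RNA of each fragment was made into TruSeq libraries and sequenced as single 50-base reads, per the study's methods. The authors processed the reads with CASAVA 1.8.2, FastQC 0.10.0, TopHat2 2.0.8 and bedtools 2.16.2, aligned them to the Macaca mulatta genome and deposited raw counts per transcript, in a table of 29686 transcripts. Reads were counted with the default settings of bedtools, which do not use strand. From these deposited counts 1 transcript per symbol was kept and edgeR 4.0.16 (R 4.3.3) fitted: filterByExpr by fragment, TMM, robust quasi-likelihood test, fragment plus animal as a block, Benjamini-Hochberg adjustment over all 17145 genes, threshold 0.05, two-sided. The block rests on the fragments of an animal sharing its MK number. Deviations from the group means correlated at 0.259 to 0.905 within animals and at -0.863 to 0.759 between them. Such deviations cancel over the animals of a fragment number, which pulls the values between animals down. The ranges overlapped and do not test the pairing. Each SE was derived from the F statistic. The difference between conditions was fitted on all 18 libraries. DESeq2 1.42.0 and limma 3.58.1 were alternatives. The code was tested on simulated data. The members and the gene lists were chosen with earlier results of these data known. The genes named are the 10 with the smallest p in each direction between A1 and A3, the 5 in each direction for the other contrasts (not all are described), each list's 2 members of highest mean CPM and every list member that passed, and others are said to be chosen after their values were seen. Not every gene under this rule is reported here. CD24, LCN2, HLA-DRA and RPL8 of the lists were not analysed here.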

Additional observations from a re-analysis of the deposited data

Results flagged for a closer look

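Over the 9 postischemic libraries, 4 of 32 library values (the summed CPM of 30 lists and the shares of POLE2 and MALAT1) held a library far from the rest by Dixon's criterion for 9 values. Its chance rate of about 1 in 20 holds for independent values with a normal distribution. Here fragments share animals and some lists share genes, so that rate does not apply and the flags are a description. POLE2 took 5.59% of counts in A2 of MK503 and at most 0.0005% in the other 8 libraries. The summed level of 7 cortical glutamatergic neuron genes was 229 CPM in A1 of MK503, against 44.7 CPM in the next library. The fibroblast and meningeal sum was 2311 CPM in A1 of MK506, against 1289 CPM in the next library, and the ventral patterning sum was 225 CPM there, against 131 CPM. The cause of each was not tested.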

How the results depend on the processing

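The counts between A1 and A3 (1155 higher, 847 lower) stayed within 1.5 times under DESeq2's size factors, no filter on low counts, summed transcripts, all 18 libraries, equal library totals and limma voom, the last 2 chosen after seeing the data. DESeq2 gave 2012 and 2378, every transcript tested separately 2030 and 1770, and the fit without the A1 library of MK503, also added after seeing the data, 1667 and 1708. With single animals left out the counts ran from 0 to 403 higher and from 0 to 225 lower. Without the A2 library of MK503 they were 0 and 0, and likewise in the 6 libraries of the 2 fragments. Without the pairing of fragments by animal (no replicate block) 0 and 0 passed, and 0 in the test of any difference. The test of any difference gave 0 with each animal left out, with DESeq2's size factors, summed transcripts, all 18 libraries or without the A1 or the A2 library of MK503, 2950 with DESeq2, 493 by transcript, 230 with equal totals and 259 with limma voom. Between A1 and A2 DESeq2 called 12 and 67, between A2 and A3 376 and 50, and for the difference between conditions 1001. Fits of A2 and A3 alone gave 156 and 2. HSPA8 (-0.03) and GPR17 (0.25), neither of which passed, changed sign without MK503 (0.03 and -0.29) and without its A1 library (0.03 and -0.31), with -0.11 and 0.61 at the other end without MK507. The causes were not tested. All 2002 genes called kept their direction wherever they were tested, which is a description, since nearly all had the same sign in all 3 animals when chosen.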

Other observations

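Genes with several annotated transcripts were compared as a further check on the choice of 1 transcript per symbol. Among 5307 symbols with at least 2 tested transcripts, edgeR called no symbol with 1 transcript higher and another lower in A1 than in A3, although the transcripts of a symbol share reads.

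The lowest fragment level of several lists lay in different animals. Blood genes summed to 33.5, 514 and 382 CPM in A1 of MK503, MK506 and MK507, 73.8, 141 and 281 CPM in A2, and 73.01, 138 and 126 CPM in A3. Choroid plexus genes summed to 114 to 609 CPM in the postischemic libraries, against 78.4 to 74850 CPM, the highest in A2 of MK501, in the sham libraries. The sham libraries entered the comparisons between conditions, the sham test of A1 against A3 and every fit of all 18 libraries.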
